A study of Mus musculus with 6 samples.

Results

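The dystrophin-glycoprotein complex was followed in the mouse muscle cell line C2C12 through 8 genes, listed by symbol as its members: Dmd, Utrn, Dag1, Sgca, Sgcb, Sgcd, Sspn and Dtna. All 8 were found, among 25269 genes with a count in at least 1 library, and all 8 passed the filter on low counts that left 15454 genes to be tested. RNA with poly(A) tails was sequenced from 6 libraries. There were 2 libraries of myotubes, the fused cells obtained after 7 days in medium with little serum, 2 of reserve cells, which shared those 7 days of culture and were parted from the myotubes by brief trypsin treatment, and 2 of proliferating myoblasts taken shortly before they covered the dish. The labels name no transgene, deletion or drug in any group. All groups came from the C2C12 line alone, and myotubes contain many nuclei in 1 cytoplasm, so that levels describe pooled RNA of a fraction of the dish and not of single nuclei.

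The complex ties the actin cytoskeleton under the muscle membrane to the basement membrane outside it. Dystrophin, or its relative utrophin, binds actin and the tail of β-dystroglycan; α-dystroglycan on the cell surface carries sugar chains that bind laminins; and the sarcoglycans with sarcospan form a subcomplex in the membrane that steadies this link. Dystrobrevin and the syntrophins bind the C-terminal part of dystrophin on the inner face. Loss of dystrophin causes Duchenne muscular dystrophy, and loss of a sarcoglycan causes a form of limb-girdle muscular dystrophy.

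The Dmd gene spans chrX:82948870-85206141 on the plus strand (GRCm38, the assembly of mm10), and its RNAs start at several places. A start at the 5′ end gives full-length dystrophin, and a start far inside the gene gives short proteins that lack the actin-binding end and most of the rod. The windows around these 2 annotated starts are shown because the coding Dmd transcripts described below start near one or the other, and the window of Utrn is shown because its counts divide between a transcript from this start and one from another. Each window holds 250 bases before and 50 bases from the start (RefSeq, GRCm38.p6), read 5′ to 3′ on the strand of the gene. Capitals mark the E-box CANNTG, which reads the same on both strands and is the kind of site that MyoD and its relatives bind, the MEF2 box and the CArG box, each searched on both strands.
Dmd, upstream start, chrX:82948620-82948919, plus strand: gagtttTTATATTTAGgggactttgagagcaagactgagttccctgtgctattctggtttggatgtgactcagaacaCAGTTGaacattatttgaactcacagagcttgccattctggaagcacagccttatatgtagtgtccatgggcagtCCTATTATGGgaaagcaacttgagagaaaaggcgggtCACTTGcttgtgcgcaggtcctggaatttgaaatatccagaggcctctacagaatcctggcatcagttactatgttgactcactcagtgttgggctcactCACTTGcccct
Dmd, internal start, chrX:85048045-85048344, plus strand: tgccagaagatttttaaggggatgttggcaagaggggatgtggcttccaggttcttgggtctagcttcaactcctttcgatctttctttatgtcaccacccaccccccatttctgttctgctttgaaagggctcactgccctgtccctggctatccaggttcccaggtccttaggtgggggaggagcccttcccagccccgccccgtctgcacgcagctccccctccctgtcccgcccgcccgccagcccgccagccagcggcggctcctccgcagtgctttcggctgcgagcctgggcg
Utrn, chr10:12861686-12861985, minus strand: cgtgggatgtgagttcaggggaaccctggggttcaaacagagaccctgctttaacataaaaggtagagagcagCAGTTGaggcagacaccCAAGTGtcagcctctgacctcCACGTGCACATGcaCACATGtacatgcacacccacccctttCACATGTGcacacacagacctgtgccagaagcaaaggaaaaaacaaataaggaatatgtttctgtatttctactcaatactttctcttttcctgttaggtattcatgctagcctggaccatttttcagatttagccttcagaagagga
The upstream Dmd window held 3 E-boxes, a MEF2 box that begins at position -244 from the start and a CArG box at -98. The internal Dmd window held none of these letters. The Utrn window held 7 E-boxes, of which 2 overlap each other, and neither of the other boxes. Among 32851 windows of the same length, 72.3% held an E-box, 3.19% a MEF2 box and 1.63% a CArG box, and a window held 1.39 E-boxes on average. The single E-box form CAGCTG was in none of the windows shown, against 16.3% of all windows. A match describes letters and not bound factors, and no binding was measured here.

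Levels were taken from the deposited estimated counts per transcript, summed to genes and expressed as CPM, counts relative to the library total after that total was scaled by the trimmed mean of M-values (TMM). The libraries held 15658875 to 20055078 estimated counts. Differences were tested with edgeR's quasi-likelihood F-test with Benjamini-Hochberg adjustment over all 15454 genes at 0.05, and the word called below refers to that threshold. GEO describes the 2 libraries of a group as biological replicates, and the p-values measure the spread between these libraries. In RNA pooled from many cells, fewer expressing cells and less RNA per cell cannot be told apart, and this holds for every level below.

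Dmd was the member with the widest difference. It stood at 65.2 and 85.4 CPM in myotubes, at 16.3 and 19.0 in reserve cells and at 0 CPM in both myoblast libraries. The 3 groups did not overlap, and the 2 myotube libraries lay further apart than those of the other groups. Dmd was at least 987-fold higher in myotubes and at least 228-fold higher in reserve cells than in myoblasts (edgeR, adjusted p = 9.63e-08 and 1.74e-06). These bounds take 3 counts over the 2 myoblast libraries as a chosen upper limit for a count of 0. That limit equals 0.0773 CPM in myoblasts and covers counting error only. Between the 2 fractions of the differentiated dish, Dmd was 4.27-fold higher in myotubes than in reserve cells (log2 fold change 2.09, 95% interval 1.74 to 2.45, adjusted p = 1.91e-05).

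**Figure D1:**
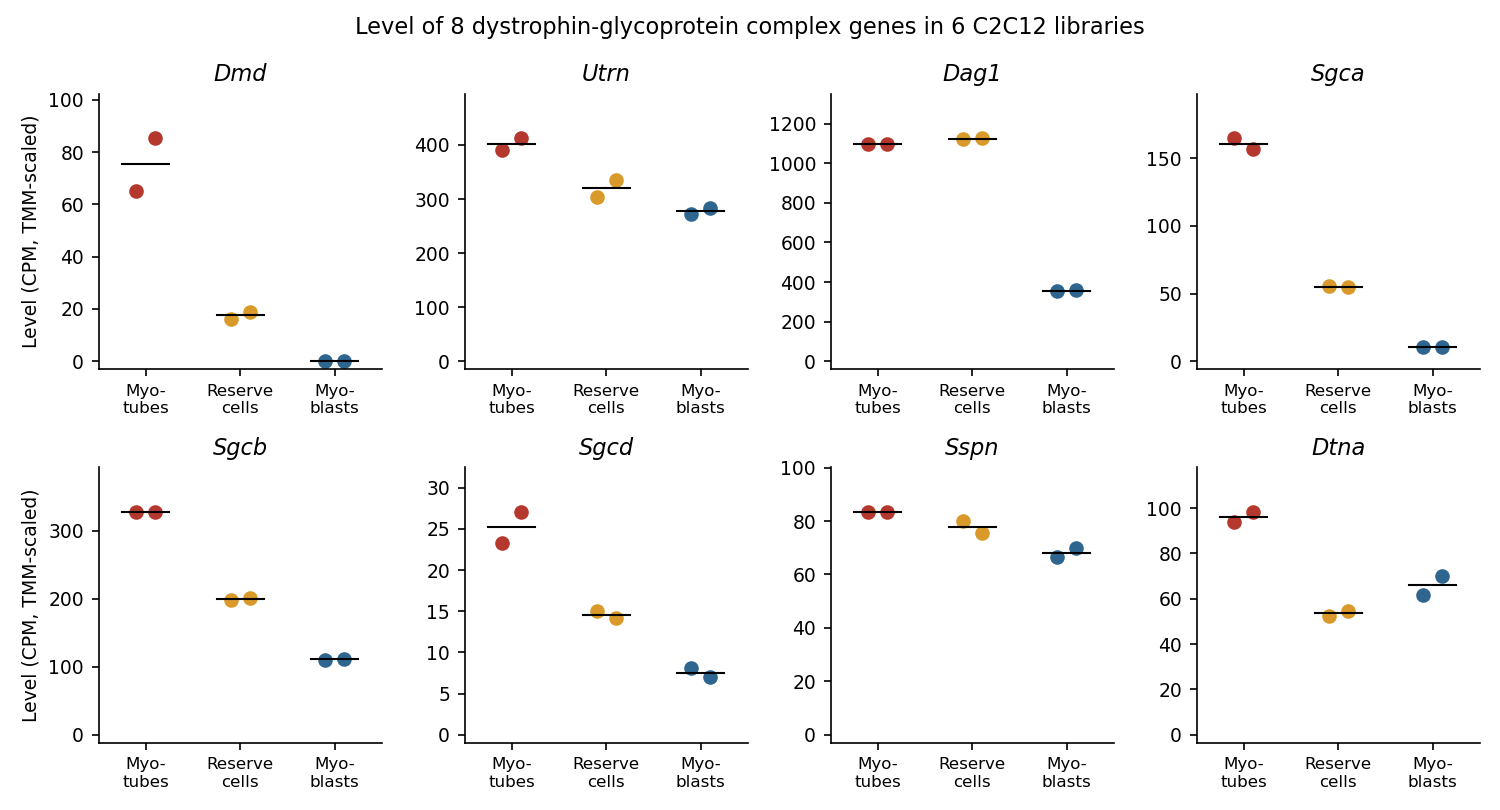
Level of each member in CPM (linear axes that include 0, a separate scale for each gene) in myotubes (red), reserve cells (orange) and myoblasts (blue). Points are libraries and black lines are group means. Dmd is at 0 in both myoblast libraries, Dag1 is about as high in reserve cells as in myotubes, and Dtna is lowest in reserve cells.

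Nearly all Dmd counts belonged to the full-length transcript. Of 13 Dmd transcripts in the files, 5 had any count, and only Dmd-203 had at least 10 counts in 2 libraries. Dmd-203 has 79 exons over 14910 bases, encodes 3678 residues and starts 33 bases downstream of the upstream start shown above. It had 906 and 1464 estimated counts in myotubes, 319 and 365 in reserve cells and 0 in both myoblast libraries. These are 98.8% to 99.7% of the Dmd counts in the 4 libraries that had any. The other 4 transcripts with counts are not annotated as coding, and none exceeded 5 counts in a library. At the level of transcripts, Dmd-203 was called higher in myotubes and in reserve cells than in myoblasts (edgeR over 35501 transcripts, adjusted p = 0.000892 and 0.00316), where 10.3% and 4.54% of all transcripts were called higher. Myotubes against reserve cells gave a log2 fold change of 2.10 (adjusted p = 0.0212, where 4.8% of transcripts were called higher). That call was lost when any of the 4 libraries compared was left out (adjusted p = 0.0695 and 0.0974 without myotube replicate 1 and 2, and 0.153 and 0.137 without reserve cell replicate 1 and 2), although the log2 fold change stayed between 1.88 and 2.31 and the call for the gene as a whole held each time.

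The short coding transcripts Dmd-201 (18 exons, 617 residues) and Dmd-202 (17 exons, 604 residues) both start 118 bases downstream of the internal start. They had 0 counts in all 6 libraries. With 3 counts again chosen as the upper limit for a count of 0, Dmd-201 could reach 0.0733 to 0.0974 TPM per library. TPM divides counts by transcript length before scaling to a common total. This limit holds for counting error and not for how reads were shared out: 98.9% of the bases of Dmd-201 and 97.5% of those of Dmd-202 lie in exons of Dmd-203, and the estimate assigns shared reads to transcripts by a model. A further 1230 transcript identifiers with 0.375% to 0.872% of the counts had no gene in the annotation used, and a Dmd transcript among them would not be counted here.

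Utrophin, the relative of dystrophin found at the junction with the nerve and in immature fibres, was present in every library. Utrn (chr10:12382188-12869365, minus strand) had 390.2 and 412.6 CPM in myotubes, 304.4 and 335.9 in reserve cells and 271.4 and 283.2 in myoblasts. The groups did not overlap, and the steps between them were small. Utrn was 1.45-fold higher in myotubes than in myoblasts (adjusted p = 5.24e-05), 1.15-fold higher in reserve cells than in myoblasts (adjusted p = 0.018) and 1.25-fold higher in myotubes than in reserve cells (adjusted p = 0.00143). The step between reserve cells and myoblasts was not called without reserve cell replicate 2 (log2 fold change 0.14, adjusted p = 0.122), without myoblast replicate 1 (0.17, adjusted p = 0.126) or when scaled by library totals (0.14, adjusted p = 0.0752). Library totals also ended the call between myotubes and reserve cells (0.12, adjusted p = 0.095).

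Per length, utrophin RNA exceeded dystrophin RNA in all 6 libraries. The ratio of Dmd TPM to Utrn TPM was 0.139 and 0.166 in myotubes, 0.0441 and 0.0451 in reserve cells and 0 in both myoblast libraries. The ratio was thus higher in both myotube libraries than in any other, and Utrn TPM itself ranged only from 56.7 to 70.3 over the 6 libraries. Utrn had 62.1 and 65.2 TPM in myotubes and 63.0 and 70.3 TPM in reserve cells, so these groups overlapped in TPM though not in CPM.

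Utrn counts lay almost wholly on Utrn-201 and Utrn-205, which encode proteins of the same length, 3430 residues, and start 7630 bases apart. The start of Utrn-201 is that of the window printed above. Utrn-201 had 2101 and 4424 estimated counts in myotubes, 2929 and 1762 in reserve cells and 2394 and 3127 in myoblasts. Utrn-205 had 3356 and 2627 counts in myotubes, 3067 and 4696 in reserve cells and 2240 and 2971 in myoblasts. The split differed as much between replicates of myotubes and of reserve cells as between groups, and neither transcript was called in any comparison (edgeR, lowest adjusted p = 0.273), so the level of Utrn was read for the gene only.

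Dystroglycan, made from Dag1 as 1 precursor that is cut into the laminin-binding α and the membrane-spanning β subunit, followed another order. Dag1 (chr9:108204634-108263958, minus strand) had 1099.1 and 1099.0 CPM in myotubes, 1121 and 1127 in reserve cells and 353.5 and 359.9 in myoblasts. Both fractions of the differentiated dish lay far above myoblasts and close to each other. Dag1 was 3.08-fold higher in myotubes (adjusted p = 1.47e-09) and 3.15-fold higher in reserve cells (adjusted p = 3.4e-09) than in myoblasts. Myotubes and reserve cells gave a log2 fold change of -0.03 with a 95% interval of -0.10 to 0.04 (adjusted p = 0.389). The sign of this small value depended on the scaling. It was 0.01 with DESeq2, with factors by relative log expression and with transcript length as an offset, and it was -0.24 with library totals, a scaling under which it was called (adjusted p = 0.000167).

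**Figure D2:**
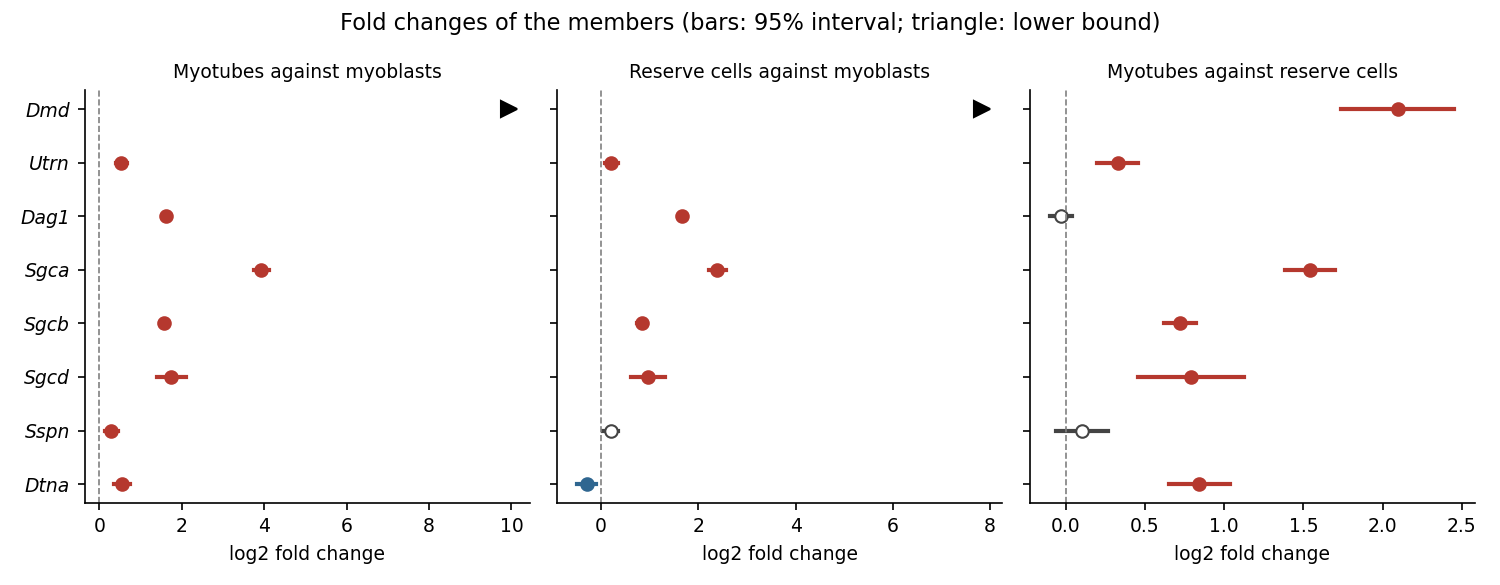
Log2 fold changes (x axes, each panel with its own range) of the 8 members (rows) in the 3 comparisons, with 95% intervals from edgeR as bars. Red points were called higher, the blue point was called lower, open grey points were not called, and triangles are lower bounds for Dmd against the 0 counts of myoblasts. All 8 members lie above 0 in myotubes against myoblasts, and Dag1 and Sspn are open in myotubes against reserve cells.

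The 3 sarcoglycan members all rose, each by a different amount. α-Sarcoglycan, which is largely restricted to striated muscle, was encoded by Sgca (chr11:94962791-94976327, minus strand) at 164.8 and 156.8 CPM in myotubes, 55.4 and 55.0 in reserve cells and 10.4 and 10.7 in myoblasts. The groups stood well apart, with close replicates. Sgca was 15.3-fold higher in myotubes (log2 fold change 3.93 ± 0.08 SE, adjusted p = 1.98e-09) and 5.24-fold higher in reserve cells (adjusted p = 7.21e-08) than in myoblasts, and 2.91-fold higher in myotubes than in reserve cells (adjusted p = 4.34e-07). Its main transcript, Sgca-201 of 387 residues, starts 2864 bases inside the annotated 5′ end of the gene and gave log2 fold changes of 3.77, 2.30 and 1.47 in the same comparisons.

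β-Sarcoglycan, found in many tissues, was less changed. Sgcb (chr5:73632749-73647790, minus strand) had 327.8 and 327.6 CPM in myotubes, 197.4 and 200.5 in reserve cells and 110.2 and 111.5 in myoblasts. Again no groups overlapped and replicates differed little. Sgcb was 2.96-fold higher in myotubes (adjusted p = 1.49e-08) and 1.79-fold higher in reserve cells (adjusted p = 1.51e-06) than in myoblasts, and 1.65-fold higher in myotubes than in reserve cells (adjusted p = 2.57e-06).

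δ-Sarcoglycan, the partner that joins β-sarcoglycan in the core of the subcomplex, had the fewest counts of the 3. Sgcd (chr11:46896253-47988969, minus strand) had 23.3 and 27.1 CPM in myotubes, 15.0 and 14.1 in reserve cells and 8.05 and 7.01 in myoblasts. The order was that of Sgcb, with wider intervals at this depth. Sgcd was 3.35-fold higher in myotubes (adjusted p = 1.34e-05) and 1.94-fold higher in reserve cells (adjusted p = 0.00109) than in myoblasts, and 1.73-fold higher in myotubes than in reserve cells (adjusted p = 0.00187).

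The proportions of the sarcoglycan RNAs changed with these unequal steps. The ratio of Sgca TPM to Sgcb TPM was 1.32 and 1.26 in myotubes, 0.761 and 0.737 in reserve cells and 0.26 and 0.241 in myoblasts, without overlap. The ratio of Sgcd TPM to Sgcb TPM was 0.165 and 0.192 in myotubes, 0.178 and 0.165 in reserve cells and 0.17 and 0.14 in myoblasts, so this pair overlapped across the groups. These ratios are within a library and do not depend on how libraries were scaled.

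Sarcospan, a membrane protein with several spans that sits with the sarcoglycans, differed little between the groups. Sspn (chr6:145931641-145965223, plus strand) had 83.5 CPM in both myotube libraries, 80.1 and 75.6 CPM in reserve cells and 66.4 and 69.9 in myoblasts. The groups did not overlap, but the steps were about as small as those of Utrn. Sspn was 1.23-fold higher in myotubes than in myoblasts (adjusted p = 0.00604), a call that library totals ended (log2 fold change 0.02, adjusted p = 0.858). Reserve cells against myoblasts gave a log2 fold change of 0.19 (95% interval 0.03 to 0.35, adjusted p = 0.0545), and myotubes against reserve cells gave 0.10 (-0.06 to 0.26, adjusted p = 0.255), which became -0.10 with library totals. The value for reserve cells was called under a filter at 10 CPM (adjusted p = 0.0375), with only the 4 libraries compared (0.0396) and with coding transcripts only (0.0439).

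α-Dystrobrevin, the inner-face partner that binds dystrophin and the syntrophins, was the member with its lowest CPM in reserve cells. Dtna had 93.9 and 98.5 CPM in myotubes, 52.6 and 54.6 in reserve cells and 61.9 and 70.2 in myoblasts. No groups overlapped. Dtna was 1.46-fold higher in myotubes than in myoblasts (adjusted p = 0.000448) and 1.79-fold higher in myotubes than in reserve cells (adjusted p = 4.63e-05). Over the 15 alternatives the log2 fold change of myotubes over myoblasts was 0.26 to 1.01, against 0.54 here. That of myotubes over reserve cells was 0.64 to 1.06, against 0.84 here. Reserve cells against myoblasts gave a log2 fold change of -0.30 and were called lower (adjusted p = 0.0175). That call was lost without reserve cell replicate 1 (-0.28, adjusted p = 0.0893), without reserve cell replicate 2 (-0.33, adjusted p = 0.0508) and without myoblast replicate 2 (-0.21, adjusted p = 0.125). With the average transcript length as an offset, the value was -0.05 (adjusted p = 0.758).

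The average length of Dtna transcripts differed between the groups, which is where this last alternative enters. It was 4274 and 3928 bases in myotubes, 4912 and 4629 bases in reserve cells and 5660 and 5708 bases in myoblasts. The transcripts behind it were chosen after their values were seen. Dtna-202, which encodes 682 residues, held 39.1% and 39.0% of the Dtna counts in myotubes, 68.3% and 58.6% in reserve cells and 90.9% and 88.0% in myoblasts. The shares of the 3 groups did not overlap. Dtna-206, of 567 residues, had 597 and 657 counts in myotubes, 188 and 259 in reserve cells and 0 and 77 in myoblasts, and Dtna-201, of 371 residues, had 107 and 207 in myotubes, 48 and 63 in reserve cells and 10 and 18 in myoblasts. Both were higher in each myotube library than in any other, while edgeR on all 6 libraries called only Dtna-201 in myotubes against myoblasts higher (log2 fold change 3.75, adjusted p = 0.0109).

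Support for these transcript values was limited by the 2 libraries a group. The call of Dtna-201 was lost without myoblast replicate 1 (adjusted p = 0.0728) or 2 (0.0589). Dtna-206 gave a log2 fold change of 4.45 in myotubes against myoblasts with a 95% interval of -0.53 to 9.43 (adjusted p = 0.187). It was called with DESeq2 (4.53, adjusted p = 0.0323), without myoblast replicate 1 (3.46, adjusted p = 0.0237) and without myoblast replicate 2 (adjusted p = 0.00672), which leaves only the myoblast library at 0 counts. Without that replicate it was also called higher in reserve cells than in myoblasts (adjusted p = 0.0177), and with only the 4 libraries compared in myotubes against reserve cells (1.81, adjusted p = 0.0378). DESeq2 called Dtna-201 higher in reserve cells than in myoblasts (adjusted p = 0.00461) and in myotubes than in reserve cells (adjusted p = 0.00136) as well. Dtna-202 was called lower than in myoblasts both in myotubes (-0.68, adjusted p = 0.0247) and in reserve cells (-0.83, adjusted p = 0.0307), where 9.88% and 2.84% of all transcripts were called lower. These calls of Dtna-202 were lost when any of the 6 libraries was left out, with adjusted p between 0.0579 and 0.131 for myotubes and between 0.0802 and 0.175 for reserve cells. They were also lost with no filter (0.0794 and 0.0823), and that for reserve cells with only the 4 libraries compared (0.0564).

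**Figure D3:**
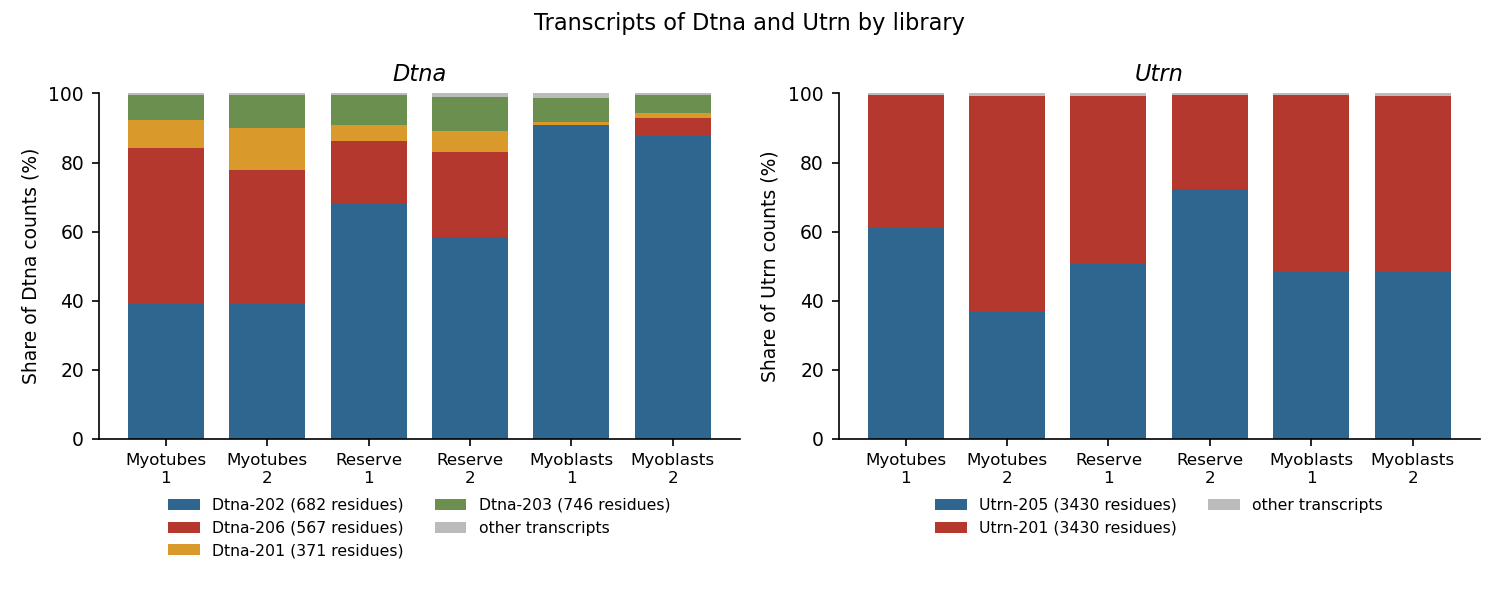
Share of the estimated counts of Dtna (left) and Utrn (right) held by each transcript, in percent, in each library from myotubes at the left to myoblasts at the right. Dtna-202 (blue) takes 39.1% and 39.0% in myotubes and 90.9% and 88.0% in myoblasts, whereas the split between Utrn-205 and Utrn-201 differs between replicates of the same group.

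Across the 8 members, all 8 were called higher in myotubes than in myoblasts, where 32.7% of all genes were called higher and 32.7% lower. In reserve cells against myoblasts 6 were called higher (24.4% of all genes) and 1, Dtna, lower (21.8% of all genes). In myotubes against reserve cells 6 were called higher (27.2% of all genes) and 0 lower (28.5% of all genes). The median log2 fold change of the members was 1.59, 0.90 and 0.75 in these comparisons, against 0.00, 0.01 and -0.01 over all genes tested, and the members' medians were the same with Dmd at its bound. The comparisons share libraries in pairs and are not independent of each other. Scaling by library totals put the median of all genes at -0.27, -0.06 and -0.21, and it put the share of higher genes among all called at 36.6%, 45.5% and 34.1%, where TMM had 50.0%, 52.7% and 48.9%.

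Per length, the order of the members differed between the groups. Dag1 led in all 6 libraries, with 402 and 397 TPM in myotubes, 518 and 522 TPM in reserve cells and 170 and 168 TPM in myoblasts. Next came Sgca and then Sgcb in myotubes, at 212 and 204 against 160 and 162 TPM, whereas in reserve cells Sgcb at 126 and 130 TPM stood before Sgca at 96.0 and 95.9 TPM. In myoblasts Sgca, at 18.8 and 18.5 TPM, was in place 6, after Sgcb, Utrn, Sspn and Dtna. Dmd was in place 8 in every library, at 8.65 and 10.8 TPM in myotubes, 2.78 and 3.17 TPM in reserve cells and 0 TPM in myoblasts. TPM is not scaled by TMM, so a difference between libraries in TPM need not match one in CPM. Both Dag1 and Sspn had lower TPM values in myotubes than in reserve cells. Utrn, called higher in myotubes than in reserve cells in CPM, overlapped between them in TPM. Dtna, called lower in reserve cells than in myoblasts in CPM, also overlapped between them in TPM. It had 25.8 and 28.9 TPM in reserve cells and 27.0 and 30.5 TPM in myoblasts. Sspn, called higher in myotubes than in myoblasts in CPM, was lower per length, at 34.7 and 35.1 TPM in myotubes and 37.0 and 39.1 TPM in myoblasts, and these did not overlap.

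**Figure D4:**
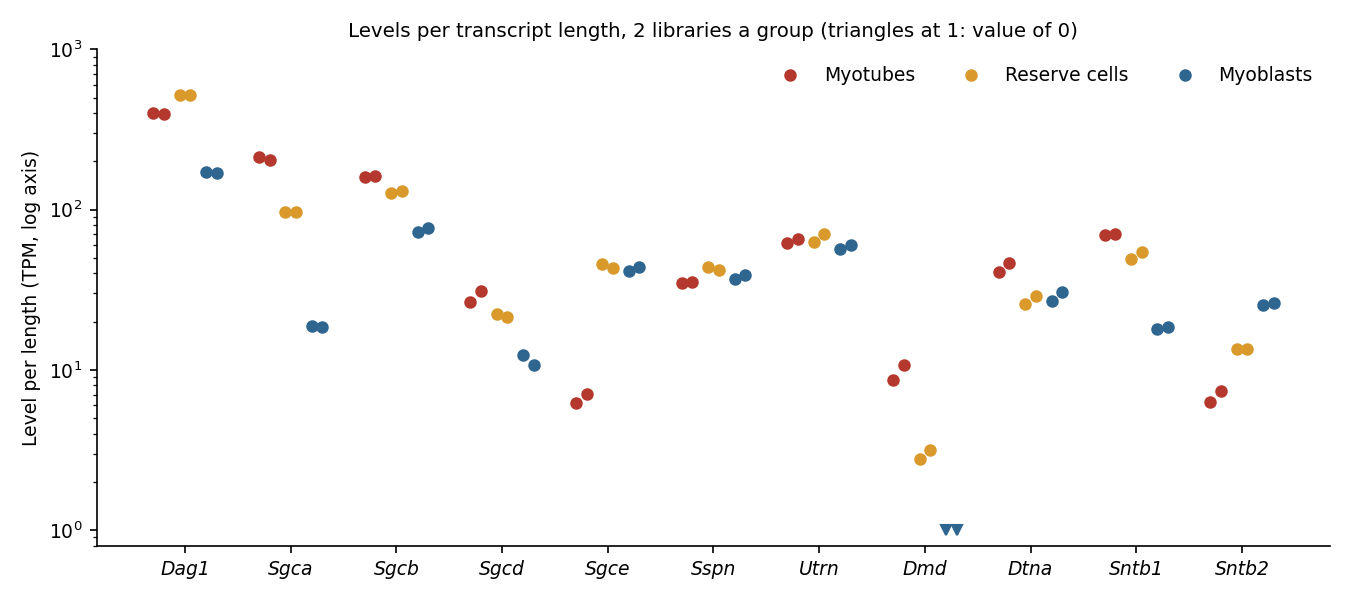
Level per transcript length in TPM (log axis) of the members and of further sarcoglycans and syntrophins, with 2 points a group for myotubes (red), reserve cells (orange) and myoblasts (blue). Triangles drawn at 1 stand for a value of 0, which applies to Dmd in both myoblast libraries. Sgca spans the widest range of the sarcoglycans shown, and Sgce is low in myotubes only.

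The level of the members in reserve cells was set beside muscle content, because the fractions were separated by trypsin and not by a marker. Expressed as a share of the myotube level on the CPM scale, reserve cells had 23.4% for Dmd, 34.3% for Sgca, 55.7% for Dtna, 57.9% for Sgcd, 60.7% for Sgcb, 79.8% for Utrn, 93.2% for Sspn and 102% for Dag1. The summed level of 10 muscle differentiation markers, among them Myog, Ckm and several myosin heavy chains, was 29930 and 30270 CPM in myotubes, 8011 and 8156 in reserve cells and 244.9 and 232.1 in myoblasts, which puts reserve cells at 26.9% of myotubes. All 10 markers were called higher in myotubes than in myoblasts (32.7% of all genes) and in reserve cells than in myoblasts (24.4%). All 10 were also called higher in myotubes than in reserve cells (27.2%). Myotubes left among the reserve cells and differentiation of the reserve cells themselves cannot be told apart by these sums, and their part in the members' levels was not tested. Summed fibroblast and matrix markers were 3533 and 3702 CPM in myotubes, 18270 and 18660 in reserve cells and 10420 CPM in both myoblast libraries. Most of this sum was Fn1, at 2747 and 2919, 14090 and 14610, and 6967 and 6979 CPM in the same order. Of 6 tested, 4 were called higher in reserve cells than in myoblasts (24.4% of all genes). Pdgfra was called lower (log2 fold change -0.88, with 21.8% of all genes called lower), and Col1a2 was not called (0.05). Cycling markers were 117 to 123 CPM in myotubes, 624 to 634 in reserve cells and 1606 to 1646 in myoblasts. Summed myoblast and satellite cell markers were 269 and 276 CPM in myotubes, 361 and 384 in reserve cells and 512 and 515 in myoblasts. Among them, Myod1 had 232.7 and 236.3, 169.2 and 189.8, and 213.2 and 201.3 CPM in the same order. Pax7 had 8.75 and 11.2, 61.3 and 65.5, and 72.9 and 68.3 CPM. Of 5 tested, 1 was called higher and 4 lower in myotubes than in reserve cells (27.2% and 28.5% of all genes). Adipoq, Lep, Plin1 and Cidec of adipocytes, Tie1 and Emcn of endothelium, Ptprc and Adgre1 of leukocytes, and Sox10, Snap25 and Rbfox3 of glia and neurons had no count in any library, while other genes of these lists had. Summed glial and neural markers were 18.4 and 17.3 CPM in myotubes, 31.5 and 31.5 in reserve cells and 167 and 158 in myoblasts, nearly all of it Tubb3 (17.0 and 15.1, 28.9 and 30.2, and 165.6 and 156.8 CPM in the same order). Summed adipocyte markers were 2.91 to 6.61 CPM in myotubes, 3.63 to 3.83 in reserve cells and 13.8 to 14.0 in myoblasts, mostly Pparg, leukocyte markers 4.07 to 4.91, 7.41 to 7.72 and 11.6 to 12.5 CPM, with Cd14 at 8.64 and 8.72 CPM in myoblasts, and endothelial markers at most 1.21 CPM in any library. The part of these sums in the members' levels was not tested.

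Of the other subunits and direct partners of the complex, 10 are reported here, which is not the whole group, so their counts do not describe it and no median is given. Sgcz, Sntg1 and Sntg2 had no count, and of the other 7, 3 were called higher and 4 lower in myotubes than in myoblasts (32.7% and 32.7% of all genes). In reserve cells against myoblasts 4 were higher and 1 lower (24.4% and 21.8%), and in myotubes against reserve cells 2 were higher and 5 lower (27.2% and 28.5%). ε-Sarcoglycan, the broadly expressed relative of α-sarcoglycan, ran against Sgca: Sgce had 5.90 and 6.51 CPM in myotubes, 31.1 and 28.6 in reserve cells and 28.3 and 28.7 in myoblasts (-2.20, adjusted p = 8.5e-07). The ratio of Sgce TPM to Sgca TPM was accordingly 0.0294 and 0.0345 in myotubes, 0.475 and 0.453 in reserve cells and 2.21 and 2.38 in myoblasts. Reserve cells and myoblasts overlapped in Sgce and were not called (0.06, adjusted p = 0.669).

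The inner-face partners moved in both directions too. Of the syntrophins, adaptors that bind dystrophin and dystrobrevin, Sntb1 gave a log2 fold change of myotubes over myoblasts of 2.37 (adjusted p = 1.91e-08) and Sntb2 one of -1.53 (adjusted p = 8.11e-07), and the values of reserve cells over myoblasts had the same signs (1.54 and -0.90, both called). β-Dystrobrevin, known mainly outside muscle, was lower in myotubes: Dtnb had 2.28 and 1.45 CPM in myotubes, 7.41 and 5.59 in reserve cells and 6.89 and 5.12 in myoblasts (-1.69, adjusted p = 0.00226). It was not called when only coding transcripts were summed (-1.48, adjusted p = 0.17). Drp2, a relative of dystrophin known from Schwann cells, was slightly lower in myotubes than in myoblasts (-0.28, adjusted p = 0.00814), which was not called with coding transcripts only (-0.31, adjusted p = 0.248) or with transcript length as an offset (-0.29, adjusted p = 0.0522). Cav3, the muscle caveolin that binds β-dystroglycan, had 2916 and 3427 estimated counts in myotubes, 955 and 895 in reserve cells and 4 and 2 in myoblasts. Its log2 fold change of myotubes over myoblasts was 10.30 (adjusted p = 6.21e-10) and rests on those few myoblast counts, being 10.99 without myoblast replicate 1 and 9.71 without replicate 2.

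Neuronal nitric oxide synthase, which dystrophin helps to hold at the membrane, was highest in reserve cells. Nos1 had 4.27 and 4.65 CPM in myotubes, 22.8 and 27.1 in reserve cells and 2.22 and 1.66 in myoblasts. The groups did not overlap. It was lower in myotubes than in reserve cells (log2 fold change -2.48, adjusted p = 1.42e-05) and higher in reserve cells (3.69, adjusted p = 2.82e-06) and in myotubes (1.21, adjusted p = 0.00142) than in myoblasts. With the average transcript length as an offset, the log2 fold change of reserve cells over myoblasts was 4.32.

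**Figure D5:**
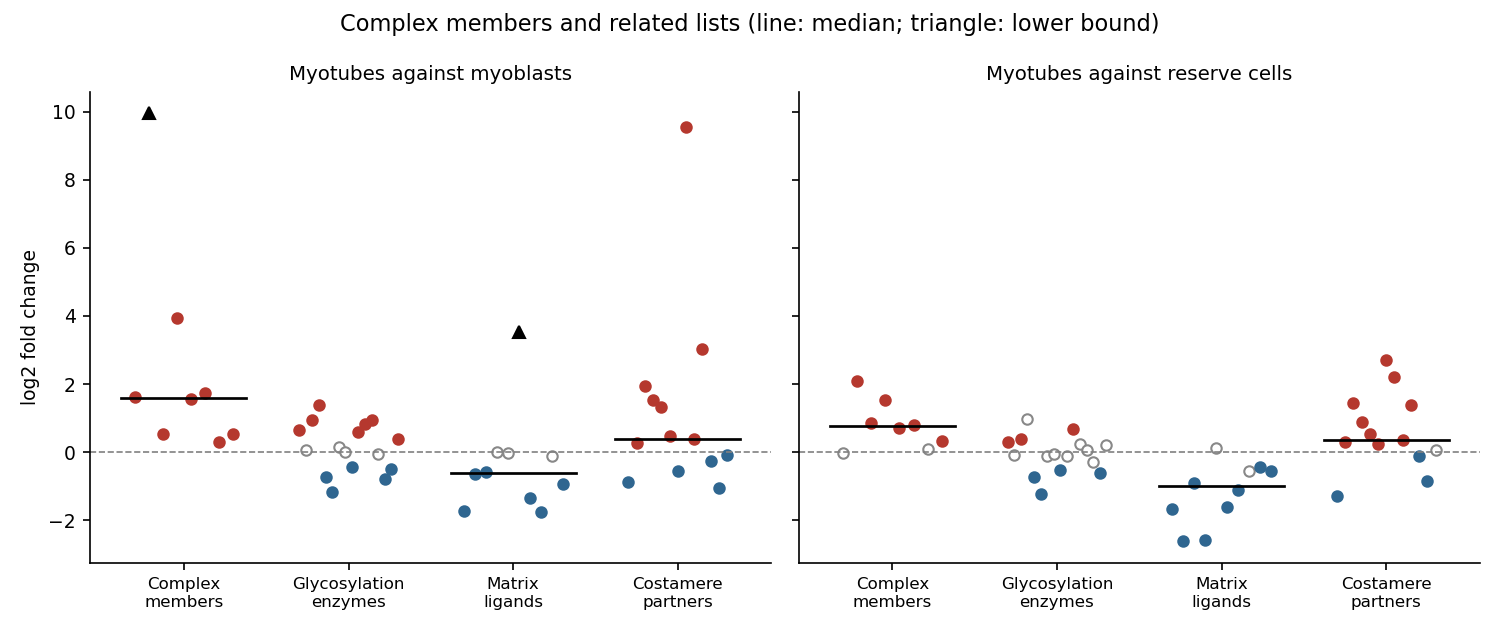
Log2 fold changes (y axis) of the members and of 3 related lists, in myotubes against myoblasts (left) and in myotubes against reserve cells (right). Red points were called higher, blue points lower and open points not called, lines are medians of each list other than the glycosylation enzymes, of which not all are shown, and triangles are lower bounds for genes at 0 counts in myoblasts (Dmd and Lama4). All members other than Dag1 in the right panel (-0.03) lie above 0. Of 10 matrix ligands, 8 were called lower in myotubes than in reserve cells, where 28.5% of all genes were called lower.

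Of the enzymes that build the laminin-binding sugars of α-dystroglycan, 17 are reported here, again not the whole list, so no median is given. Of the 16 tested, 7 were called higher and 5 lower in myotubes than in myoblasts (32.7% and 32.7% of all genes), 3 higher and 1 lower in reserve cells than in myoblasts (24.4% and 21.8%), and 3 higher and 4 lower in myotubes than in reserve cells (27.2% and 28.5%). Nothing is read from these counts about the enzymes as a group. Dolk, which makes the dolichol phosphate that the mannose donor is built on, was called higher in myotubes (0.94, adjusted p = 0.000119) and in reserve cells (0.56, adjusted p = 0.00427) than in myoblasts, with 28.7 and 29.4 CPM in myotubes, 22.9 and 21.8 in reserve cells and 16.1 and 14.2 in myoblasts. Its call in myotubes against reserve cells (0.38, adjusted p = 0.0207) was lost with library totals (0.17, adjusted p = 0.235) and whenever 1 library of either fraction was left out (0.33 to 0.41, adjusted p = 0.0514 to 0.121). Pomt1, which adds the mannose that starts these chains, was lower in myotubes than in myoblasts (-0.78, adjusted p = 0.000236). Of the subunits that make the mannose donor, Dpm3 was lower in myotubes than in myoblasts (-1.18, adjusted p = 0.00648) and Dpm1 higher (1.40, adjusted p = 0.0127). The call of Dpm1 was lost without myotube replicate 2 (1.25, adjusted p = 0.0612) or myoblast replicate 1 (0.92, adjusted p = 0.0581), and its value was 2.12 without myoblast replicate 2.

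Among the matrix ligands of dystroglycan, 10 of 12 listed were tested, and 1 was called higher and 6 lower in myotubes than in myoblasts (median -0.62), where 32.7% of all genes were called in each direction. In reserve cells against myoblasts 5 were higher and 2 lower (median 0.13, with 24.4% and 21.8% of all genes called), and in myotubes against reserve cells 0 were higher and 8 lower (median -1.0, with 27.2% and 28.5%). Agrin, which binds α-dystroglycan and gathers acetylcholine receptors at the synapse, had 21.4 and 19.7 CPM in myotubes, 67.2 and 62.3 in reserve cells and 65.6 and 69.6 in myoblasts, and Agrn was called lower in myotubes than in myoblasts (-1.72, adjusted p = 3.32e-07). Lamb1, a laminin β chain, was lower in myotubes too (-1.75, adjusted p = 0.0118), at 26.1 and 28.2 CPM in myotubes and 144.1 and 39.8 CPM in myoblasts, where the 2 libraries differed widely. The value was -0.56 without myoblast replicate 1 and -2.42 without replicate 2, both called, and the call was lost without myotube replicate 1 (adjusted p = 0.0584) or 2 (0.0511). Lama4, a laminin α chain, had 14 counts in each myotube library, 55 and 53 in reserve cells and 0 in myoblasts, which makes it at least 11.6-fold higher in myotubes and at least 35.7-fold higher in reserve cells. Lama1, the laminin α chain of early basement membranes, had 5 and 14 counts in myotubes and 9 and 14 in myoblasts, with a log2 fold change of 0.02 (adjusted p = 0.981) whose sign changed with the settings.

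Costamere and cytoskeletal partners, which share the lateral attachment sites of the muscle membrane with the complex, were called higher in 8 and lower in 5 of 13 tested in myotubes against myoblasts (median 0.38), where 32.7% of all genes were called in each direction, so that the share of lower genes was near that of all genes. They were higher in 7 and lower in 3 in reserve cells against myoblasts (median 0.24, with 24.4% and 21.8% of all genes called), and higher in 9 and lower in 3 in myotubes against reserve cells (median 0.36, with 27.2% and 28.5%). Pgm5, whose product aciculin binds dystrophin and utrophin, had 479.3 and 497.7 CPM in myotubes, 108.8 and 103.4 in reserve cells and 0.525 and 0.738 in myoblasts (log2 fold change of myotubes over myoblasts 9.55, adjusted p = 6.99e-11). Synm, which encodes the intermediate filament protein synemin, was higher in myotubes as well (3.03, adjusted p = 0.000117), a value that became 3.83 without myoblast replicate 2. Ank2, an ankyrin (-0.88, adjusted p = 0.000814), and Tln2, a talin (-1.05, adjusted p = 4.16e-06), were lower in myotubes than in myoblasts.

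The genes whose levels followed Dmd and Utrn most closely were picked among 9949 genes by the smallest Euclidean distance of log2 CPM, centred over the 6 libraries. For Dmd they were Fxyd6 (distance 0.369), Myh2 (0.46), Pgm5 (0.461), Myl4 (0.475) and Adprhl1 (0.494). Fxyd6 had 82.0 and 84.5 CPM in myotubes, 18.1 and 17.1 in reserve cells and 0 CPM in myoblasts, much as Dmd did. For Utrn they were Qk (0.0706), Inpp5a (0.0762), Prkx (0.0819), Gprasp1 (0.0843) and Rnf20 (0.09). Qk, for example, had 566.3 and 608.6 CPM in myotubes, 455.9 and 487.6 in reserve cells and 391.6 and 397.4 in myoblasts. The distances describe 6 libraries in 3 groups, in which many genes share an order.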

How the data were processed

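RNA of 6 C2C12 libraries was sequenced by the authors in paired-end mode with reads of 150 bases. Per the labels and the series' notes, HISAT2 (alignment to mm10), SAMtools (filtering) and StringTie (transcripts) were run by the authors, who deposited 1 estimated count per library for each of 142604 transcripts, stored as whole numbers that need no rounding. For program versions and the annotation release: not given in the sources used here. A table of the whole series was not used here.

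Transcripts were paired with genes through GENCODE release M21, which matched 141374. The 1230 left, with 0.375% to 0.872% of the counts, were not added to any named gene. Each was kept as an entry of its own. The numbers of genes given here, and the shares of all genes, therefore include those of them with enough counts. Gene and transcript levels were tested with R 4.3.3 and edgeR 4.0.16 by glmQLFit and glmQLFTest on all 6 libraries, with TMM factors, after filterByExpr (minimum count 10), at a Benjamini-Hochberg adjusted p of 0.05. TPM used the annotated transcript lengths. Against a group at 0 counts, 3 counts in that group gave the bound on the fold. The procedure was tested on simulated data. Alternatives were library totals, RLE (relative log expression) factors, DESeq2 1.42.0, a threshold of 10 CPM in 2 libraries or none in place of filterByExpr, a block for the replicate number, fits of only the 4 libraries compared, average transcript length as an offset, coding transcripts only, and each library left out. No libraries were identical, and the chi-square per degree of freedom between replicates was 6.22 to 8.

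The members and lists were chosen with earlier results of these data known. The text names all members, the sarcoglycans, dystrobrevin, syntrophins and partners, from the other lists the 2 genes with the largest and the 2 with the smallest fitted log2 fold change of myotubes over myoblasts, the 5 genes nearest to Dmd and to Utrn with at least 10 CPM in a group, and Dmd transcripts with at least 10 counts in 2 libraries. Transcripts of other members were chosen after their values were seen, and marker lists are given as sums. Some genes of the lists of other subunits and partners, glycosylation enzymes, and glial and neural markers are not reported here and were left out of the counts. Promoter windows came from RefSeq (GRCm38.p6), with 10 windows for 7 members, and Dtna was not used there.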

Additional observations from a re-analysis of the deposited data

How the results depend on the processing

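Each fold change of the 8 members in the 3 comparisons was recomputed under 15 alternatives. Of 360 values, 343 kept their direction and their side of the threshold, 9 lost a call, 4 gained one and 4 changed sign. When each library was left out in turn, no member changed sign in any comparison. Calls of Utrn and Dtna in reserve cells against myoblasts were lost as given above. Dmd-203 in myotubes against reserve cells kept a log2 fold change of 1.88 to 2.31, with its call lost as given above. The changes of sign of members were all in myotubes against reserve cells: Dag1 at 0.0057 with DESeq2 and RLE factors and 0.006 with length as an offset, and Sspn at -0.10 with library totals. Other genes and transcripts gave 1476 values, of which 1345 were unchanged in direction and call, 87 lost a call, 29 gained one and 15 changed sign. In myotubes against myoblasts Lama1 was -0.26 with library totals, -0.009 with no filter, -0.0363 with the replicate block and -0.73 to 0.46 with 1 library left out, negative without myotube replicate 2 or myoblast replicate 1. In reserve cells against myoblasts Sgce was -0.0068 and Dpm3 -0.0338 with library totals and Drp2 -0.0127 with coding transcripts only. With 1 library left out, Dtnb was -0.10 to 0.34 (negative without reserve cell replicate 1 or myoblast replicate 2), Dpm1 -0.12 to 1.17 (negative without reserve cell replicate 2 or myoblast replicate 1) and Dpm3 -0.32 to 0.33 (negative without reserve cell replicate 1). In myotubes against reserve cells Gprasp1 was -0.0493 with length as an offset, and Dtna-202 was -0.0622 with library totals. The cause of these changes was not tested.

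The labels do not say whether libraries of the same replicate number belong together. The correlations below did not show a pairing and cannot exclude one. Deviations of same-numbered libraries from their group means correlated across genes at 0.00 for myotubes and myoblasts, 0.04 for reserve cells and myoblasts and -0.03 for myotubes and reserve cells, and there are only 2 pairs. With the replicate number as a block, 8, 7 and 6 members were called in the 3 comparisons, as without it. Only Dtna in reserve cells against myoblasts was called lower. Of 15454 genes, 9926, 6958 and 8383 were called under the block in the same order. Both calls of Dtna-202 were lost with it (adjusted p = 0.0695 in myotubes and 0.0987 in reserve cells against myoblasts). Dmd and Sgcd had the widest intervals of the members in myotubes against reserve cells, and with 2 libraries a group a lone remaining library is assumed to vary like the other groups.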
